A study of Homo sapiens with 4 samples.

Results

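T24 and 5637 are established lines from human carcinomas of the urinary bladder, and their untreated cultures were compared here gene by gene. The series holds 4 libraries, of which 2 entered the comparison: 1 of untreated T24 and 1 of untreated 5637. The remaining 2 came from the same lines after 6 h of protodioscin, a steroidal saponin, at 60 µM in T24 and 70 µM in 5637, and served as a second pair of libraries. Both lines grew in RPMI medium with heat-inactivated bovine serum and antibiotics, and the untreated cultures received no agent that the labels name. Levels are in FPKM, the number of sequenced fragments per kilobase of transcript after scaling to the size of the library. Genes with 1 FPKM or more in either untreated library entered the comparison. That held for 13130 of the 60617 gene IDs in the table, and 11161 of these reached 1 FPKM in both lines. RHOJ, at 1.0001 FPKM in T24 and listed at 0 in 5637, lay just inside this limit, and ACBD7, at 0.998 and 0.726 FPKM, just outside. A difference is T24 minus 5637 on the log2(FPKM + 1) scale, which understates the contrast of genes with low levels. With 1 library per line there was no replicate error and no test, so genes are described by size, and each line is 1 culture and no sample of bladder tumours.

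The normal urothelium has basal cells, which carry the factor TP63 and the keratins KRT5 and KRT14, and luminal cells, which depend on GATA3, FOXA1 and PPARG and make uroplakins. Bladder cancers are often described along the same axis, and some lose epithelial adhesion and take on mesenchymal genes, a switch in which ZEB1, ZEB2, SNAI2 and TWIST1 repress E-cadherin. Interferons act through STAT2, IRF9 and related factors on a short promoter sequence, the interferon-stimulated response element, to switch on antiviral genes. T24 is known for an activated HRAS gene, and 5637 as a line without working RB1.

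The promoters of the interferon-stimulated genes BST2, IFI27, IFI6 and IFIT1 are shown. These 4 were picked from the 12 widest differences higher in T24, which also held the antiviral gene MX1, not shown here. The 12 were taken from genes that share no exons with another gene on their strand. Each line gives 250 bases before to 50 bases after a RefSeq transcript start (GRCh38.p14), 5′ to 3′ on the strand of the gene. Capitals mark every match to GAAANNGAAA, the core of the interferon-stimulated response element, on either strand. BST2 is at chr19:17405581-17405880 (minus strand), IFI27 at chr14:94110486-94110785 (plus strand), IFI6 at chr1:27672143-27672442 (minus strand) and IFIT1 at chr10:89392373-89392672 (plus strand).
BST2: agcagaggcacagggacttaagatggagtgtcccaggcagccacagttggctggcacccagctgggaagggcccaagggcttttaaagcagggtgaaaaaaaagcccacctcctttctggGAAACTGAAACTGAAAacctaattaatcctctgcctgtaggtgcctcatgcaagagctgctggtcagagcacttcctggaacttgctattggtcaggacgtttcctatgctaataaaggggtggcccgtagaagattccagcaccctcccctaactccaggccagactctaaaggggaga
IFI27: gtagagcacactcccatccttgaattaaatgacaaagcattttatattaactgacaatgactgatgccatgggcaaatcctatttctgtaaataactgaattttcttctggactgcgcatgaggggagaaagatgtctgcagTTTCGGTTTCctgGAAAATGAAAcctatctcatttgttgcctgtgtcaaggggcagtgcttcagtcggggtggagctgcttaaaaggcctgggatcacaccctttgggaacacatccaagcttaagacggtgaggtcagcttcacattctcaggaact
IFI6: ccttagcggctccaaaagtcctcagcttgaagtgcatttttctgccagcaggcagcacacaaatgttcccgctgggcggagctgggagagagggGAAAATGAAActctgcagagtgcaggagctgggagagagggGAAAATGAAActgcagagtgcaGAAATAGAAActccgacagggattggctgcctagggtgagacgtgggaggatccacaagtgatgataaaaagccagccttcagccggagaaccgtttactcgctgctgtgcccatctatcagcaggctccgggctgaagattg
IFIT1: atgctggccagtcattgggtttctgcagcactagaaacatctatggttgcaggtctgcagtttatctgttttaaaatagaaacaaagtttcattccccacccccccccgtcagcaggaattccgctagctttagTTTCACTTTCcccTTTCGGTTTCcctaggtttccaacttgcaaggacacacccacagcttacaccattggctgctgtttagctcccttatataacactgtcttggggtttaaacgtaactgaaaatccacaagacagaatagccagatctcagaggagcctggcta
The BST2 window held 2 overlapping matches, from 130 to 115 bases before the start. Windows of IFI27 and IFIT1 held 2 matches each and that of IFI6 held 3. In untreated T24 these 4 genes stood at 203, 225, 180 and 43.8 FPKM, in the order BST2, IFI27, IFI6 and IFIT1. In untreated 5637, BST2 was listed at 0, and IFI27, IFI6 and IFIT1 stood at 0.239, 1.09 and 0.167 FPKM.

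Across all genes compared, the lines were close at the middle of the range and far apart at its ends. The median difference was 0.03, the median absolute difference was 0.447, and 54.6% of genes differed by less than 0.5. A difference of 1 or more, called 2-fold here, was reached by 1142 genes higher in T24 (8.7%) and by 1464 genes higher in 5637 (11.2%), or 19.8% of genes in either direction. A difference of 3 or more, called 8-fold, was reached by 79 genes higher in T24 (0.602%) and 192 genes higher in 5637 (1.46%). At the edge of the 2-fold rule, RHOJ lay just inside and DZIP1L, at 3.9997 FPKM in T24 and 1.4998 FPKM in 5637, just outside. Untreated 5637 was the deeper library, at 1.43 times the depth of untreated T24 as read from the spacing of low values, and 1 read on 1 kb of transcript was worth 0.0171 FPKM there and 0.0246 FPKM in T24. Transcripts of the mitochondrial genome held 9.84% of the FPKM sum in 5637 and 4.50% in T24, and the part of this in the differences was not tested. A lower level in a culture can mean fewer cells with the transcript or less of it per cell, which cannot be told apart. The library kit marks no strand, so overlapping genes on opposite strands, such as FAS and ACTA2, HLA-DPA1 and HLA-DPB1, or MMP1 and WTAPP1, cannot be separated fully. Among genes named below, CLDN7, ELF3, UPK1B, ITGB3, ITGB6, ERBB3, JAG2, ETV5, COL17A1, LAMB3, MMP2, IL32, TYMP, PYCR1, UGT1A6, CYP1B1, GSTM1, CFB, C1S, CD68 and MTAP share exons on their own strand with another gene, so their values depend in part on an estimate.

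**Figure D1:**
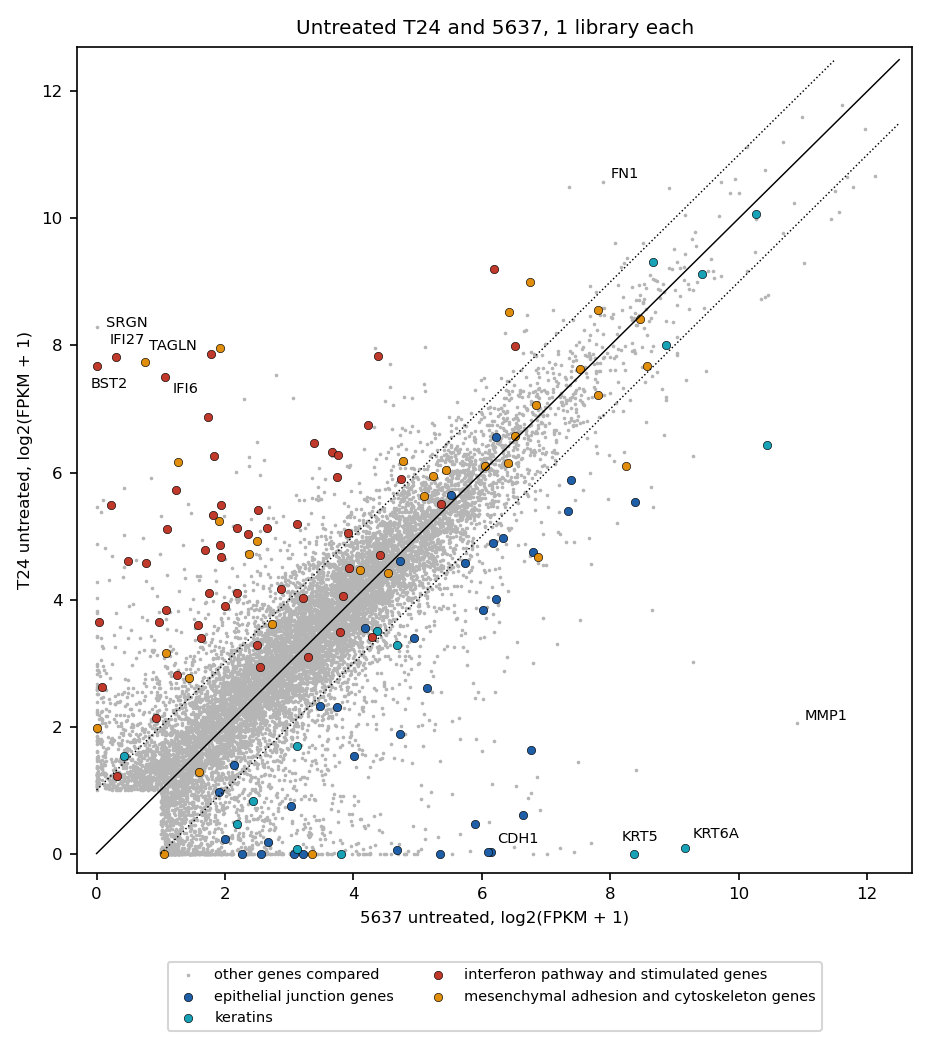
Level of each compared gene in untreated 5637 (x axis) and untreated T24 (y axis), both as log2(FPKM + 1), 1 point per gene and 1 library per line; the solid line marks equal levels and the dotted lines a difference of 1. Most listed interferon genes (43 of 54) lie above the upper dotted line. Most junction genes (29 of 35) and several keratins lie below the lower one, with KRT6A at 0.0681 FPKM in T24 and 574 FPKM in 5637.

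Among genes that share no exons with another gene on their strand, those with the widest differences higher in 5637 were products of basal and squamous epithelium and of its surroundings. KRT6A, a keratin of activated epithelium, stood at 0.0681 FPKM in T24 and 574 FPKM in 5637, a difference of -9.07. KRT5, the basal keratin, was listed at 0 in T24 and stood at 331 FPKM in 5637. MMP1, the interstitial collagenase, stood at 3.17 and 1912 FPKM, a difference of -8.84. Others in this group of 12 were S100A9, ANO1, WNT7A, LAMA3, GDA, CD24, LCN2 and CDH1, which encode among others an inflammatory calcium-binding protein, a chloride channel, a Wnt ligand and a laminin chain. Their levels in T24 ran from 0 (GDA) to 7.11 FPKM (LCN2), and in 5637 from 69.6 FPKM (CDH1) to 626 FPKM (LCN2).

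Among genes that share no exons on their own strand, 12 had the widest differences higher in T24. They were interferon-stimulated genes and genes of the contractile cytoskeleton, with a few others. TAGLN, FOXC2 and MX1 among them overlap exons of a gene on the opposite strand, which these libraries do not separate. SRGN, which encodes the proteoglycan core serglycin, stood at 312 FPKM in T24 and was listed at 0 in 5637, as were FOXC2 (42.7 FPKM in T24) and CD40 (28.4 FPKM). TAGLN, MYL9 and TPM2, an actin-binding protein, a myosin light chain and a tropomyosin, stood at 212, 70.7 and 249 FPKM in T24 against 0.693, 1.41 and 2.81 FPKM in 5637. CD70, a ligand of the tumour necrosis factor family, stood at 46.7 FPKM in T24 and 0.0735 FPKM in 5637. The remaining members of the 12 were BST2, IFI27, IFI6, IFIT1 and the antiviral GTPase gene MX1, at 116 and 2.34 FPKM.

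A stricter view counted genes at 5 FPKM or more in 1 line and under 0.1 FPKM in the other. There were 32 such genes in T24 (0.244%), of which 17 were listed at 0 in 5637, and 112 in 5637 (0.853%), of which 69 were listed at 0 in T24. The T24 genes included SRGN, BST2, CD70, FOXC2, CD40, ZEB1, OASL, ABCB1, HLA-DPA1, HLA-DPB1 and GSTM1. Those of 5637 included KRT5, KRT6A, KRT6B, CDH1, CDH3, CLDN7, TP63, GRHL2, ESRP1, OVOL1, IL23A, IL1RN, LPL, FGFR2 and TWIST1. KRT6A and KRT6B are near-identical copies, so the split of reads between them is uncertain.

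The libraries were checked against their labels with markers of urothelial carcinoma. Simple-epithelium keratins were abundant in both: KRT7 stood at 1073 FPKM in T24 and 1235 FPKM in 5637, KRT8 at 555 and 692 FPKM, and KRT18 at 256 and 467 FPKM. GATA3 was at 17.6 and 14.5 FPKM. In T24, CDH1, TP63 and KRT5 were at or near 0 and EPCAM, an epithelial surface glycoprotein, was at 2.09 FPKM, so the epithelial label rested there on simple keratins and on GATA3, PPARG and FOXA1. The umbrella-cell markers UPK2, UPK3A and KRT20 were under 1 FPKM in both lines. Of the leukocyte markers PTPRC, CD3E and LYZ were listed at 0 in both, as were the fibroblast markers DCN and LUM. Of 38 listed genes of leukocytes, endothelium, fibroblasts and smooth muscle, 5 reached 1 FPKM: CD68, CDH5, EGFL7 and ACTG2 were higher in T24 and COL1A1 in 5637.

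**Figure D2:**
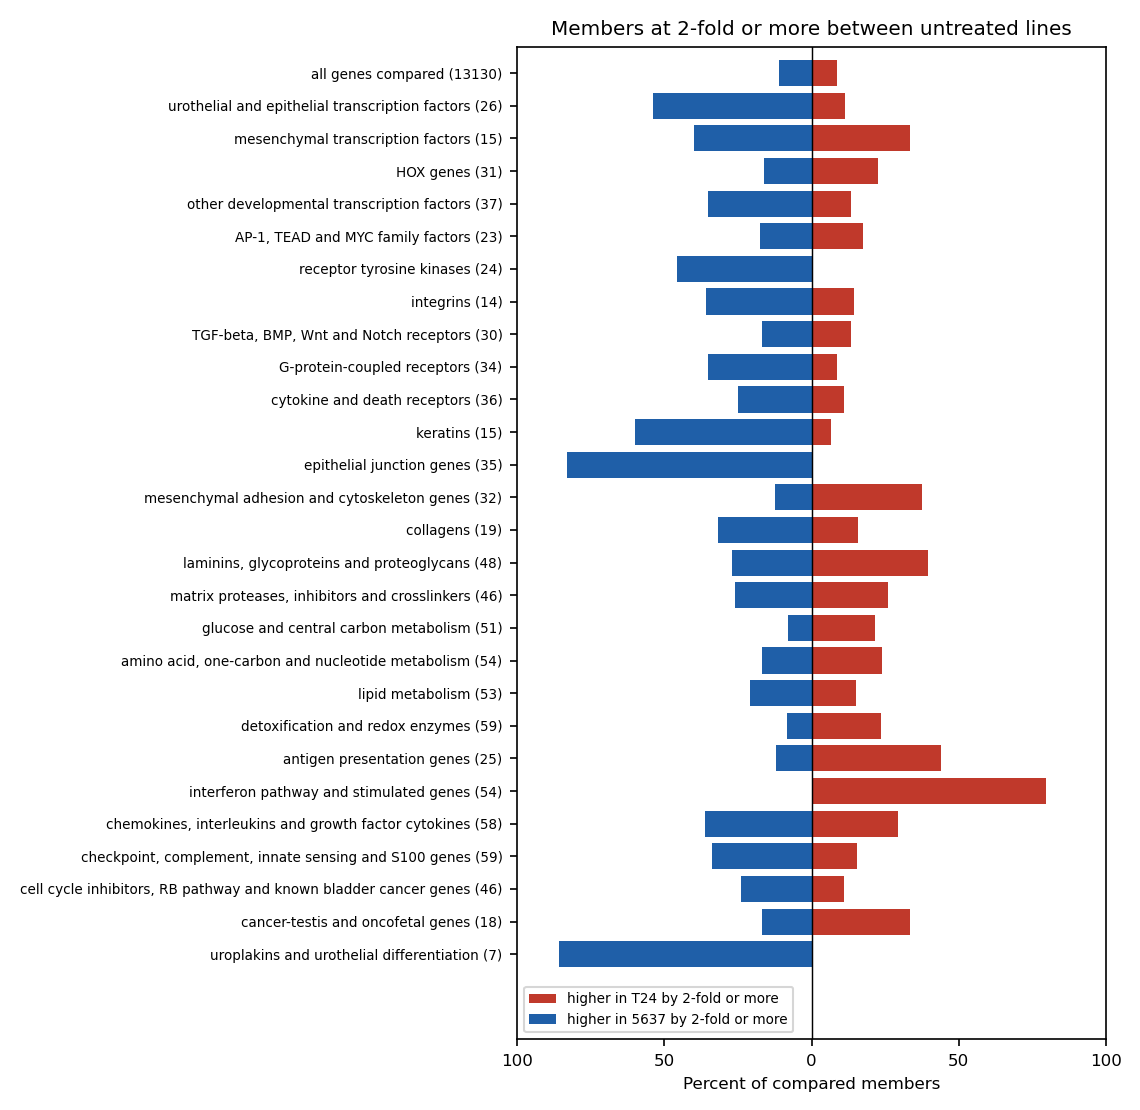
Share of compared members at a 2-fold difference or more in gene lists, in percent. Red bars to the right are for members higher in T24 and blue bars to the left for members higher in 5637. The number of compared members stands in parentheses and the top row gives all genes. Lists of leukocyte, of endothelial, and of fibroblast and smooth muscle markers, with 1, 2 and 2 compared members, are not drawn. Interferon genes extend furthest to the right (79.6% of 54), and uroplakin and junction genes extend furthest to the left (85.7% of 7 and 82.9% of 35), beside 8.7% and 11.2% of all genes.

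Transcription factors of the epithelium were at higher levels in 5637. Of 26 compared urothelial and epithelial factors, 14 were higher in 5637 by 2-fold or more and 3 in T24, with a median difference of -1.20 beside 0.03 over all genes. EHF, an epithelial ETS factor, stood at 1.08 FPKM in T24 and 91.1 FPKM in 5637. TP63 stood at 0.0232 and 27.9 FPKM, and the treated libraries repeated this at 0 and 19.2 FPKM. GRHL2, which maintains epithelial junction genes, OVOL1, a repressor of mesenchymal genes, and the epithelial splicing regulator ESRP1 were listed at 0 in T24 and stood at 15.9, 7.41 and 29.8 FPKM in 5637. Several members were thus at or near 0 in T24, and others were present at a lower level, such as KLF5 at 34.1 and 87.0 FPKM and ELF3 at 2.53 and 12.4 FPKM.

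The luminal factors did not share one direction. GATA3 differed by 0.27, at 17.6 FPKM in T24 and 14.5 FPKM in 5637. FOXA1, a pioneer factor of the luminal state, was higher in T24, at 19.9 and 4.84 FPKM, a difference of 1.84. PPARG, the nuclear receptor that drives uroplakin genes, was higher in 5637, at 17.6 and 50.4 FPKM, a difference of -1.46. Basal TP63 and luminal PPARG were therefore both higher in 5637, whereas FOXA1 was higher in T24.

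Mesenchymal transcription factors were divided between the lines. Of 15 compared, 5 were higher in T24 (33.3%) and 6 in 5637 (40.0%). ZEB1 and ZEB2, repressors of E-cadherin, stood at 8.46 and 5.07 FPKM in T24 against 0.0702 and 0.408 FPKM in 5637. FOXC2, a forkhead factor of mesenchyme, stood at 42.7 FPKM in T24 and was listed at 0 in untreated 5637. TWIST1, in contrast, was listed at 0 in T24 and stood at 8.73 FPKM in 5637, and SNAI2 stood at 17.2 FPKM in T24 and 41.7 FPKM in 5637. The hedgehog effectors GLI2 and GLI3 were also higher in 5637, at 9.19 and 8.81 FPKM there and 2.27 and 2.03 FPKM in T24, differences of -1.64 and -1.69. The neighbouring forkhead gene FOXL1, next to FOXC2 on chromosome 16, differed by 0.50, at 19.5 and 13.5 FPKM.

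HOX genes, which record position along the body, differed in part. Of 31 compared, 7 were higher in T24 (22.6%) and 5 in 5637 (16.1%). HOXB2 stood at 20.0 FPKM in T24 and 1.15 FPKM in 5637, HOXC4 at 4.42 and 0.147 FPKM and HOXA13 at 3.33 and 0.0604 FPKM. HOXA9 stood at 3.005 FPKM in T24 and 31.3 FPKM in 5637, and HOXA11 at 0.0659 and 5.49 FPKM. HOXB7 was level between the lines, at 35.6 and 34.5 FPKM. HOXC4 shares exons with HOXC6, and HOXA9 with an unnamed gene, so their values depend on how the authors' tool divided the reads.

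Other developmental factors were more often higher in 5637, at 13 of 37 compared (35.1%) against 5 in T24 (13.5%). BARX2 and DLX5, both homeobox genes, were listed at 0 in T24 and stood at 20.4 and 6.37 FPKM in 5637. SOX4, a factor of progenitor cells, stood at 12.04 and 123 FPKM. In the other direction PAX8, known from kidney and thyroid, stood at 58.3 FPKM in T24 and 10.8 FPKM in 5637, and IRX3 at 6.21 and 1.18 FPKM. Of 23 AP-1, TEAD, ETS and MYC family factors, 4 were higher in each line (17.4%). The ETS genes ETV4 and ETV5, both known targets of MAP kinase signalling, went in opposite directions, ETV4 at 8.16 and 53.6 FPKM and ETV5 at 16.6 and 1.43 FPKM. TEAD2 was higher in 5637, at 4.46 and 27.8 FPKM, and the Hippo cofactor WWTR1 in T24, at 46.2 and 17.4 FPKM. FOSL1, the AP-1 subunit of invasive cells, and MYC differed by less than 2-fold, at 254 and 404 FPKM and at 42.8 and 67.2 FPKM.

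Of all lists, that of cell junction genes had the most members higher in 5637. Of 35 compared, 29 were higher in 5637, none was higher in T24 and the median difference was -2.21. E-cadherin, encoded by CDH1, stood at 0.0160 FPKM in T24 and 69.6 FPKM in 5637. In the treated libraries it was listed at 0 in T24 and stood at 72.3 FPKM in 5637. CDH3, which encodes P-cadherin, stood at 0.0169 and 67.6 FPKM. The tight-junction genes CLDN4 and CLDN7 stood at 0.515 FPKM and 0 in T24 and at 99.1 and 39.6 FPKM in 5637. ST14, a membrane serine protease of epithelia, stood at 0.385 and 58.3 FPKM, and EPCAM at 2.09 and 108 FPKM. Members under 2-fold included CLDN1, at 92.8 and 73.8 FPKM, and TJP1, at 23.3 and 25.3 FPKM. Genes beside CDH1 and CDH3 on chromosome 16 did not share the contrast: ZFP90 and TANGO6, which flank the pair, differed by 0.52 and 1.03 with T24 higher.

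Keratins were higher in 5637 for 9 of 15 compared (60.0%), with KRT34 alone higher in T24 (6.67%). KRT19 stood at 85.7 FPKM in T24 and 1388 FPKM in 5637, KRT6B was listed at 0 in T24 and stood at 12.96 FPKM in 5637, and KRT14 stood at 0.381 and 3.57 FPKM. KRT17 stood at 634 and 404 FPKM, under 2-fold and higher in T24. Of these keratins at 2-fold or more, 7 kept direction and size in the treated pair. Uroplakin and differentiation genes were higher in 5637 for 6 of 7 compared members, yet at low levels, with UPK1B listed at 0 in T24 and at 3.79 FPKM in 5637. AQP3, a water and glycerol channel of basal and intermediate urothelium, stood at 0.807 and 32.0 FPKM.

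Genes of mesenchymal adhesion and of the contractile cytoskeleton were higher in T24 for 12 of 32 compared and higher in 5637 for 4. The T24 share was above the 8.7% of all genes, and the 5637 share was near the 11.2% of all genes. Besides TAGLN, TPM2 and MYL9, the actin cross-linker FLNC stood at 36.8 FPKM in T24 and 2.74 FPKM in 5637, EMP3 at 29.3 and 4.65 FPKM, and MAP1B, a microtubule-associated protein gene, at 25.2 and 4.20 FPKM. Vimentin did not follow them: VIM stood at 68.0 FPKM in T24 and 304 FPKM in 5637, a difference of -2.14. THY1 was listed at 0 in T24 and stood at 9.25 FPKM in 5637, and NT5E stood at 24.4 and 117 FPKM. N-cadherin, encoded by CDH2, was present in both lines at 48.5 and 33.4 FPKM. The line with E-cadherin thus also had the higher vimentin, and both had N-cadherin.

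**Figure D3:**
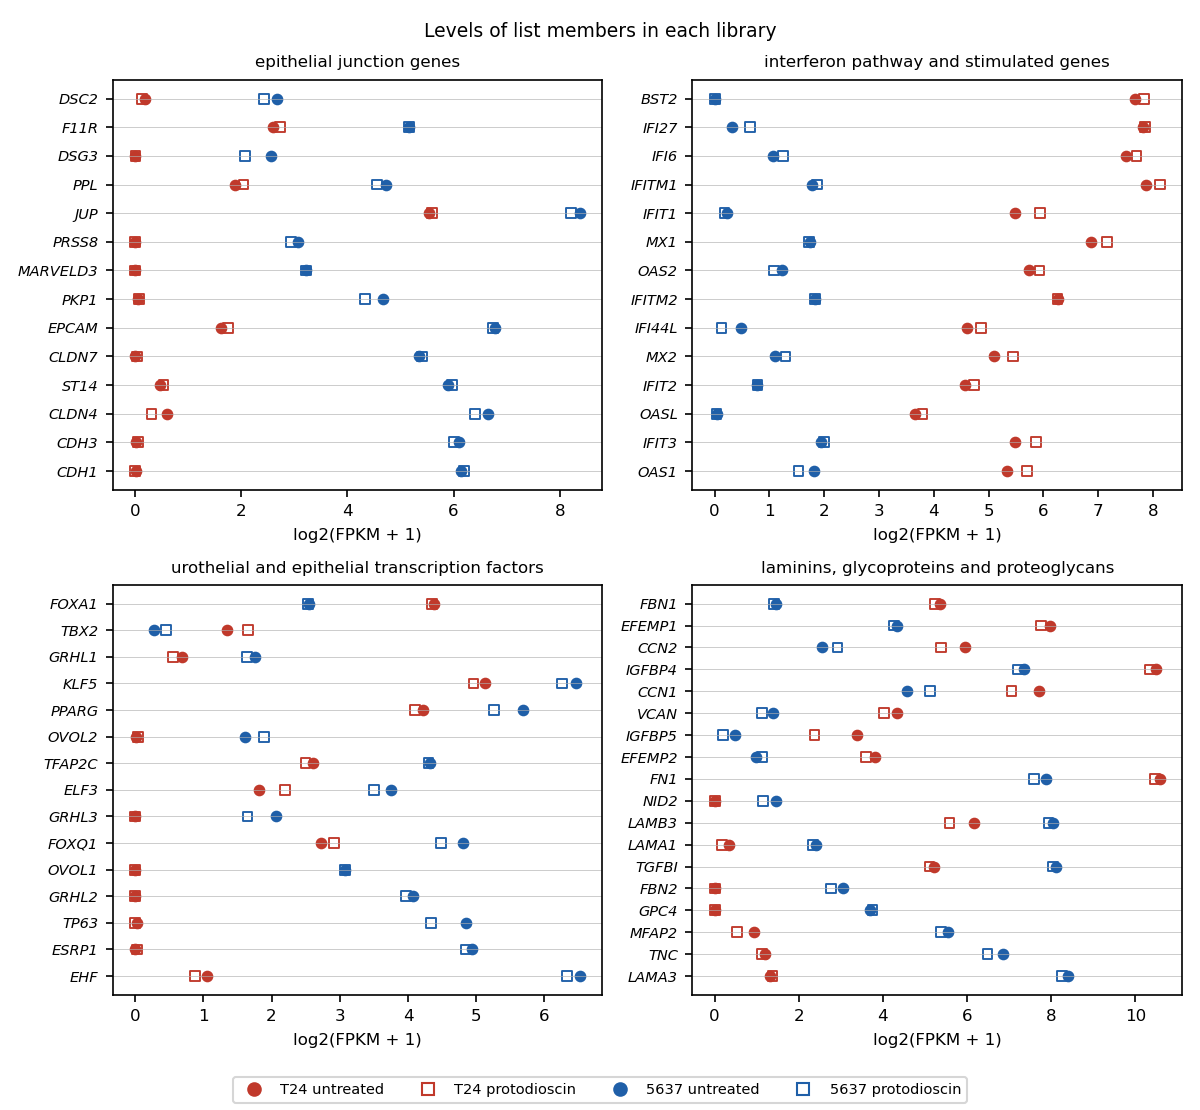
Level of the listed genes in all 4 libraries as log2(FPKM + 1): red for T24, blue for 5637, filled circles for untreated and open squares for protodioscin, 1 library per symbol. The panels show most of the junction genes, interferon-stimulated genes, epithelial transcription factors and matrix genes with the widest differences; in each row both T24 libraries lie on the same side of both 5637 libraries, as for CDH1 at 0.0160 and 0 FPKM against 69.6 and 72.3 FPKM.

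Receptor tyrosine kinases were higher in 5637 where they differed. Of 24 compared, 11 were higher in 5637 (45.8%) and none in T24, with a median of -0.885. EGFR, the epidermal growth factor receptor, stood at 29.3 FPKM in T24 and 74.6 FPKM in 5637. ERBB3 stood at 0.451 and 8.48 FPKM and FGFR2 at 0.0259 and 6.15 FPKM, while ERBB2 was near level at 31.0 and 37.0 FPKM. EPHA1 and EPHB4, ephrin receptors, stood at 0.0994 and 13.8 FPKM in T24 against 19.2 and 66.6 FPKM in 5637. AXL, a receptor often linked to mesenchymal cells, stood at 121 and 81.5 FPKM, MET at 53.7 and 78.6 FPKM and FGFR1 at 8.31 and 8.05 FPKM, all under 2-fold. FGFR3, often altered in luminal bladder tumours, was under 1 FPKM in both lines.

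Ligands of these receptors were divided, as were a Wnt ligand and antagonists of Wnt. AREG and TGFA, ligands of EGFR, stood at 12.1 and 16.6 FPKM in T24 against 66.0 and 84.2 FPKM in 5637. EREG, another ligand of EGFR, was higher in T24 but under 2-fold, at 39.8 and 22.7 FPKM. FGF2 was higher in T24, at 11.9 and 1.11 FPKM. WNT7A stood at 0.0633 and 148 FPKM. The Wnt antagonists DKK1 and DKK3 were higher in T24, at 161 and 185 FPKM against 22.8 and 5.93 FPKM in 5637.

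The integrin chains of the hemidesmosome, the anchor of basal epithelium, were higher in 5637. ITGB4, whose product pairs with that of ITGA6 to bind laminin, stood at 13.3 FPKM in T24 and 403 FPKM in 5637, and ITGA6 at 191 and 423 FPKM. ITGB6 stood at 0.102 and 10.3 FPKM. ITGB3 and ITGA11, a receptor chain for vitronectin and one for fibrillar collagen, were higher in T24, at 4.94 and 4.47 FPKM against 0.105 and 0.0477 FPKM in 5637. The common chain ITGB1 differed by 0.57, at 355 and 239 FPKM. In all, 5 of 14 compared integrins were higher in 5637 (35.7%) and 2 in T24 (14.3%).

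Other receptors differed for a minority of members. Among 30 receptors and ligands of TGF-beta, BMP, Wnt and Notch signalling, 4 were higher in T24 (13.3%) and 5 in 5637 (16.7%). These shares were not far above the 8.7% and 11.2% of all genes. The Notch ligands DLL1 and JAG2 stood at 0.195 and 0.446 FPKM in T24 against 8.89 and 9.70 FPKM in 5637, and endoglin, encoded by ENG, was higher in T24 at 57.0 and 22.04 FPKM. Among 34 G-protein-coupled receptors, 12 were higher in 5637 (35.3%), led by the chemokine scavenger ACKR3 at 0.0488 and 32.2 FPKM. Another 3 were higher in T24 (8.82%, beside 8.7% of all genes), led by GPRC5C at 8.67 and 0.0554 FPKM. Among 36 cytokine and death receptors, 4 were higher in T24 (11.1%, near the 8.7% of all genes). Another 9 were higher in 5637, a share above the 11.2% of all genes. CD40, which binds the ligand of activated T cells, stood at 28.4 FPKM in T24 and was listed at 0 in both 5637 libraries. IL7R stood at 19.7 and 3.54 FPKM and FAS, a death receptor, at 16.6 and 3.95 FPKM.

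The basement membrane chains of the hemidesmosome were higher in 5637. LAMA3 and LAMB3, which encode laminin chains, stood at 1.501 and 71.3 FPKM in T24 against 336 and 264 FPKM in 5637. COL17A1, the transmembrane collagen of the hemidesmosome, stood at 0.609 and 119 FPKM. These 3 genes and ITGB4 and ITGA6 were all at 2-fold or more in the same direction. They were named by a rule that favours wide differences, and LAMB3 after values were seen, so their agreement is no separate result. COL7A1 and the integrin chain ITGA3 were under 2-fold, at 57.8 and 346 FPKM in T24 against 43.3 and 396 FPKM in 5637. Type IV collagen chains differed by less, with COL4A1 at 97.4 and 48.9 FPKM and a difference of 0.98.

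Matrix genes went in both directions. Of 48 compared laminins, glycoproteins and proteoglycans, 19 were higher in T24 (39.6%) and 13 in 5637 (27.1%). FN1, which encodes fibronectin, stood at 1530.3 FPKM in T24 and 235 FPKM in 5637, FBN1 (fibrillin) at 40.0 and 1.76 FPKM, and EFEMP1, a fibulin, at 249 and 19.2 FPKM. CCN1 and CCN2, matricellular targets of YAP, stood at 209 and 61.1 FPKM in T24 against 22.8 and 4.85 FPKM in 5637. IGFBP4, which binds insulin-like growth factors, stood at 1449.96 and 162 FPKM. Among 19 compared collagens, 3 were higher in T24 (15.8%) and 6 in 5637 (31.6%). COL18A1, COL5A2 and COL8A1 were higher in T24, at 72.4, 75.4 and 25.9 FPKM against 5.13, 11.6 and 4.02 FPKM. COL16A1 and COL1A1 were among those higher in 5637, at 0.728 and 0.900 FPKM in T24 against 11.8 and 6.81 FPKM. The elastic-fibre genes MFAP2 and FBN2 were higher in 5637, unlike FBN1 and EFEMP1, at 0.917 and 0.00685 FPKM against 45.4 and 7.28 FPKM. TNC, which encodes tenascin, was also higher there, at 1.30 FPKM in T24 and 115 FPKM in 5637.

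Matrix proteases and their inhibitors split evenly, with 12 of 46 compared higher in each line (26.1%). On the 5637 side were MMP1, MMP10 at 1.10 and 32.1 FPKM, MMP2 at 2.49 and 59.3 FPKM, and the urokinase gene PLAU at 47.1 and 250 FPKM. On the T24 side were ADAMTS1 at 88.4 and 4.64 FPKM, ADAM12 at 19.6 and 0.337 FPKM and the metalloprotease inhibitor TIMP1 at 144 and 26.5 FPKM. SERPINB2, an inhibitor of urokinase, was on the 5637 side with its target, at 42.9 and 406 FPKM. PLOD2, which hydroxylates collagen lysines, was higher in T24, at 81.8 and 11.8 FPKM.

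Of 217 compared metabolic genes, 46 were higher in T24 (21.2%) and 29 in 5637 (13.4%). The counts were 34 (30.1%) and 31 (27.4%) of 113 matrix genes and 80 (40.8%) and 44 (22.4%) of 196 immune genes. The immune genes include the 54 compared interferon genes, of which 43 were higher in T24 and 0 in 5637. Of 51 compared genes of glucose and central carbon metabolism, 11 were higher in T24 (21.6%) and 4 in 5637 (7.84%). The shares over all genes were 8.7% and 11.2%. The aldolase gene ALDOC stood at 6.85 and 0.471 FPKM. GAPDH and LDHA stood at 2369.6 and 884 FPKM in T24 against 1652 and 637 FPKM in 5637, under 2-fold. GFPT2, an enzyme of the hexosamine pathway, was higher in 5637, at 1.94 and 19.5 FPKM.

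Of 54 genes of amino acid, one-carbon and nucleotide metabolism, 13 were higher in T24 (24.1%) and 9 in 5637 (16.7%). Serine and proline synthesis genes PSAT1 and PYCR1 stood at 35.4 and 26.9 FPKM in T24 against 10.4 and 5.27 FPKM in 5637. CBS, which makes cystathionine, stood at 10.5 and 1.36 FPKM, NNMT, which methylates nicotinamide, at 12.8 and 0.240 FPKM, and TYMP, thymidine phosphorylase, at 21.8 and 0.345 FPKM. CDA, cytidine deaminase, which inactivates gemcitabine, was the widest the other way, at 0.111 FPKM in T24 and 25.1 FPKM in 5637. KYNU, an enzyme of tryptophan breakdown, stood at 0.138 and 11.8 FPKM. Both nucleoside genes kept these sides in the treated pair, CDA at 0 and 21.4 FPKM and TYMP at 21.97 and 0.288 FPKM.

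Lipid genes were higher in T24 for 8 of 53 (15.1%) and in 5637 for 11 (20.8%). CPT1A, the gate of mitochondrial fatty acid oxidation, stood at 17.4 and 3.19 FPKM. PTGES and PTGS2, which make prostaglandin E2, stood at 4.83 and 5.25 FPKM in T24 against 60.1 and 21.2 FPKM in 5637, and the lipid droplet gene PLIN2 at 4.82 and 36.3 FPKM. Of 59 detoxification and redox genes, 14 were higher in T24 (23.7%) and 5 in 5637 (8.47%, below the 11.2% of all genes). MT1E, a metallothionein, stood at 142 FPKM in T24 and 3.92 FPKM in 5637, and ABCB1, the multidrug efflux pump, at 6.89 FPKM with 5637 listed at 0. UGT1A6, CYP1A1 and CYP1B1, known targets of the aryl hydrocarbon receptor, were higher in 5637, at 20.3, 5.11 and 5.15 FPKM against 0.535, 0.0750 and 0.464 FPKM, whereas ALDH3A1, another such target, was higher in T24, at 5.75 and 0.365 FPKM.

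Of all lists, that of interferon genes had the most members higher in T24. Of 54 compared, 43 were higher in T24 and none in 5637, with a median difference of 2.53. All 43 also passed the 2-fold rule in the same direction in the treated pair. IFITM1, a barrier to virus entry, stood at 234 and 2.43 FPKM, OAS2, an antiviral enzyme that senses double-stranded RNA, at 52.0 and 1.35 FPKM, and ISG15, a ubiquitin-like modifier, at 227 and 19.8 FPKM. Members under 2-fold included IFI16 at 44.5 and 40.3 FPKM, IRF3 at 24.9 and 20.4 FPKM and SAMD9 at 15.5 and 13.3 FPKM. The interferon genes on the list, IFNB1, IFNL1 and IFNE, were each under 1 FPKM in both lines, and IFNB1 was listed at 0 in both. IFITM1 and IFITM2 share exons with other genes and resemble each other, so the split between them is uncertain.

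The promoter letters were counted over the genes with a RefSeq entry, matched by symbol, which were 9947 of the 12723 compared genes with a symbol. A gene was counted where any of its 300-base windows held the letters on either strand. GAAANNGAAA was present in 23 of the 31 interferon genes that were higher in T24 and had an entry (74.2%), and in 5 of the 8 that were under 2-fold (62.5%). It was present in 3.89% of all compared genes and in 3.57% of the 35116 promoters in the table. Among genes at 8-fold or more it was present in 13 of 43 higher in T24 (30.2%) and in 5 of 123 higher in 5637 (4.07%).

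Letters of other factors were counted the same way. The E-box CACCTG, which ZEB and SNAI proteins can bind, was in 50 of 123 promoters of genes 8-fold higher in 5637 (40.7%), in 9 of 43 of those 8-fold higher in T24 (20.9%) and in 23.4% of all compared genes. Of the junction genes higher in 5637, 8 of 15 with an entry held it (53.3%). The AP-1 letters TGACTCA were in 20 of 123 genes 8-fold higher in 5637 (16.3%), in 0 of 43 of those higher in T24 and in 4.97% of all. GC-rich promoters with many CpG pairs (GC of 55% or more and a CpG ratio of 0.65 or more) made up 81.7% of all compared genes and 51.2% of both 8-fold sets. These matches describe letters in a window and do not show binding.

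Antigen presentation was higher in T24 for 11 of 25 compared genes and in 5637 for 3. Here too the T24 share was above the 8.7% of all genes, and the 5637 share was near the 11.2% of all genes. The class I genes HLA-B and HLA-E stood at 302 and 144 FPKM in T24 against 103 and 29.2 FPKM in 5637, and B2M, their common light chain, differed by 0.39, at 530 and 403 FPKM. HLA-DPA1 and HLA-DPB1, a class II pair, stood at 6.42 and 7.24 FPKM in T24 and under 0.1 FPKM in 5637. CD74, the class II invariant chain, was higher in 5637, at 16.03 and 44.7 FPKM. HLA genes resemble each other and vary between people, so read division among them is uncertain.

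Cytokine genes went in both directions. Of 58 compared, 17 were higher in T24 (29.3%) and 21 in 5637 (36.2%). IL1A, IL1RN and IL23A stood at 2.43 FPKM, 0 and 0 in T24 and at 72.1, 17.4 and 18.1 FPKM in 5637, IL32 at 1.14 and 70.1 FPKM, and the granulocyte factor CSF3 at 11.8 and 184 FPKM. IL18, like IL1A of the interleukin-1 family, differed by less than 2-fold, at 31.3 and 22.8 FPKM. IL6 and CXCL8, an attractant of neutrophils, stood at 14.4 and 64.8 FPKM in T24 against 3.84 and 22.9 FPKM in 5637. GDF15, a stress-induced cytokine, stood at 24.8 and 0.183 FPKM, CCL5 at 4.51 and 0.0734 FPKM, and TGFB1 at 68.6 and 14.5 FPKM. Each line thus had its own set of higher cytokines.

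Innate sensing, complement and S100 genes were higher in 5637 for 20 of 59 compared (33.9%) and in T24 for 9 (15.3%). S100A9 stood at 0.116 FPKM in T24 and 207 FPKM in 5637, and LCN2, a siderophore-binding protein of inflamed epithelium, at 7.11 and 626 FPKM. NECTIN1, an adhesion protein, stood at 4.40 and 63.6 FPKM. Complement was divided: CFB and C1S were at 40.5 and 13.1 FPKM in T24 against 0.0466 FPKM and 0 in 5637, whereas C3 stood at 51.8 and 190 FPKM. NLRP1, an inflammasome sensor, stood at 18.7 and 0.150 FPKM. CD274, which encodes PD-L1, was under 2-fold, at 6.63 and 14.1 FPKM.

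Several regulators of the RB pathway were among the wider differences. RB1 stood at 30.4 FPKM in T24 and 0.643 FPKM in 5637, a difference of 4.26, and at 31.6 and 0.554 FPKM in the treated pair. CDKN2C, an inhibitor of CDK4 and CDK6, stood at 38.7 and 1.003 FPKM, while CDKN2A, which encodes the inhibitor p16, stood at 46.4 and 174 FPKM. E2F3, a factor that RB restrains, stood at 7.01 and 111 FPKM, and CCNE1 at 3.84 and 16.5 FPKM. HRAS stood at 106 and 67.9 FPKM and CCND1 at 239 and 331 FPKM, both under 2-fold. In this list of 46 compared genes, 5 were higher in T24 (10.9%, near the 8.7% of all genes) and 11 in 5637 (23.9%). Cancer-testis and oncofetal genes were mostly under 1 FPKM in both lines. Of 18 compared, 6 were higher in T24 (33.3%) and 3 in 5637 (16.7%). Among the 6 were MAGEA3 and MAGEA11, at 5.14 and 4.999 FPKM with 5637 listed at 0.

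Neighbours of these genes were examined because position had not been used to choose them. Next to RB1 on chromosome 13, the protein-coding genes MED4 and ITM2B differed by 0.77 and 0.35, and FNDC3A by 1.11, against 4.26 for RB1 itself. The widest difference among the neighbours examined was 1.38, at ESD. On chromosome 6, CDKAL1 lies between E2F3 and SOX4, and the 3 genes stood at 4.46, 7.01 and 12.04 FPKM in T24 against 58.7, 111 and 123 FPKM in 5637, in the order CDKAL1, E2F3 and SOX4. Directly beyond SOX4, the long non-coding RNA gene CASC15 stood at 0.00790 and 18.1 FPKM, a difference of -4.24, though it shares exons with another gene. The nearest compared protein-coding genes outside, MBOAT1 and MRS2, differed by -0.18 and 0.04.

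Running medians over 25 neighbouring compared protein-coding genes picked out stretches where most genes shared a direction. The lowest was -2.26, on chromosome 3 from 10026414 to 13880121 (GRCh38), between FANCD2 and WNT7A, where 0 of 25 genes were above 0. SEC13, a coat protein gene of vesicle transport, stood there at 53.6 FPKM in T24 and 398 FPKM in 5637, and VHL at 13.1 and 65.3 FPKM, beside PPARG and HRH1. The edges of this stretch were read from the values, so the contrast with its flanks follows in part from that choice. All 44 compared protein-coding genes from SRGAP3 to WNT7A (chromosome 3, 8980591 to 13880121) were lower in T24. Of these, 38 were lower by 2-fold or more, and the median was -2.11. The 11 genes before the stretch had a median of 0.0284, with 5 below 0 and 2 higher in 5637 by 2-fold or more. The 616 after it had a median of 0.309, with 173 below 0 and 33 higher in 5637 by 2-fold or more. In the treated pair the 44 genes were again all lower in T24, with a median of -2.19.

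Other stretches were shallower. On chromosome 17 the first 200 compared genes, up to NATD1 (212389 to 21253410), had a median of 0.704, with 173 above 0, and the 526 after it a median of -0.294; this edge was likewise read from the values. The highest 25-gene median was 1.03, on chromosome X from L1CAM to F8A1 (153861514 to 155026940), where FLNA, an actin cross-linker, stood at 786 and 268 FPKM. Low stretches lay on chromosome 9 from MPDZ to MOB3B (-1.06), which holds CDKN2A, MTAP and PLIN2, and on chromosome 1 from PI4KB to S100A14 (-1.03). By whole chromosome, the median ran from -0.538 on chromosome 7 to 0.575 on chromosome 16. Of 548 genes on chromosome 7, 22 were higher in T24 (4.01%) and 113 in 5637 (20.6%). On chromosome 16 the counts were 100 (18.4%) and 23 (4.24%) of 543 genes. Over all chromosomes the median was 0.0411, with 8.87% of genes higher in T24 and 10.8% in 5637.

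**Figure D4:**
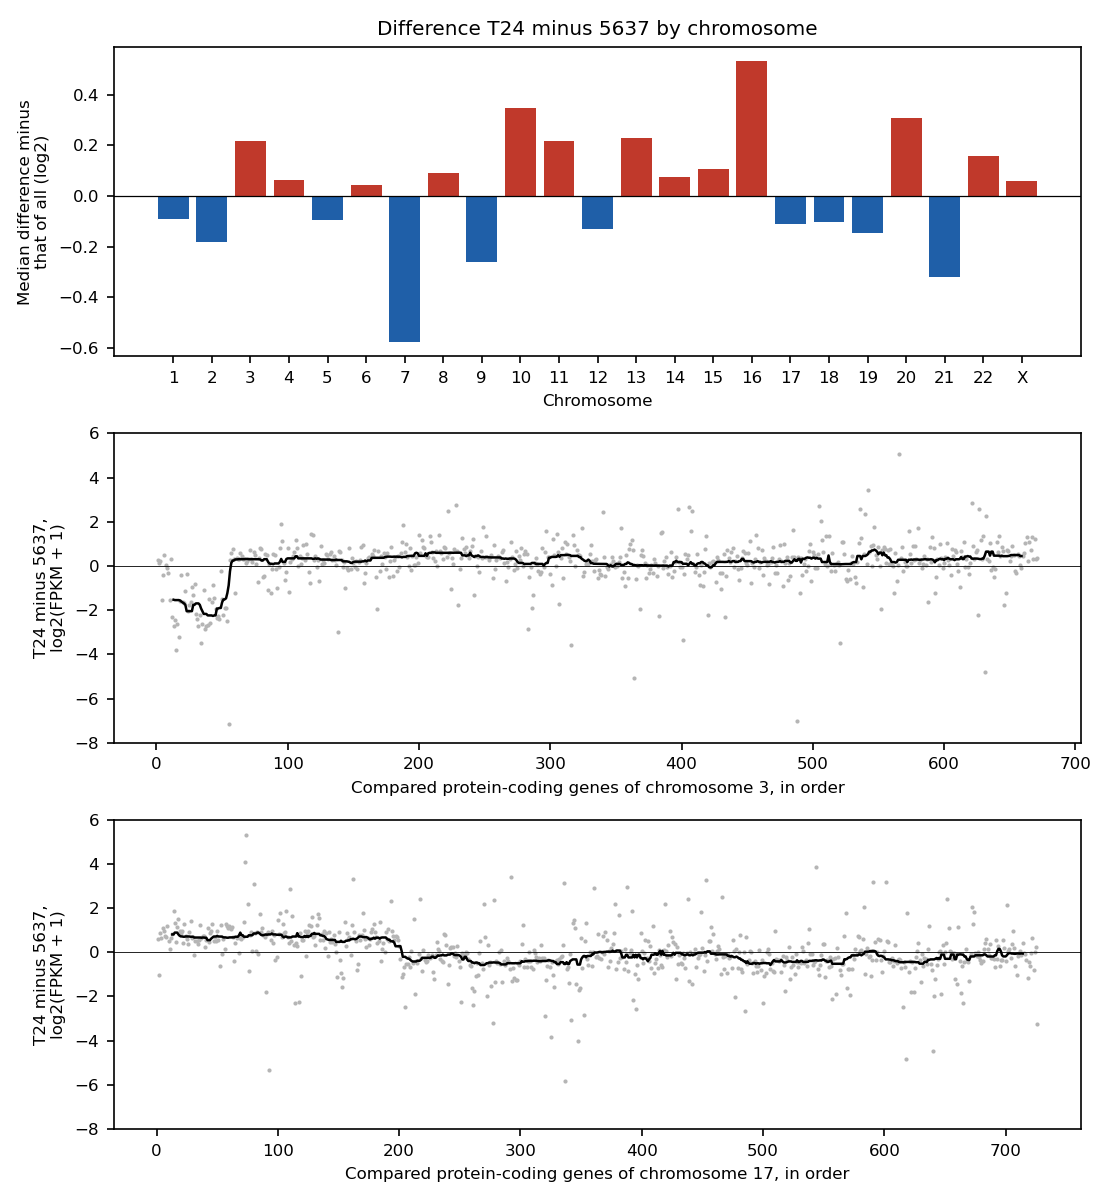
Top, median difference (T24 minus 5637, log2(FPKM + 1)) of compared protein-coding genes on each chromosome minus the median of all; middle and bottom, the difference of each gene on chromosomes 3 and 17 in gene order, with points for genes and a black line for the running median of 25 genes. On chromosome 3 the line lies near -2 for the stretch that ends at WNT7A and then steps up, and on chromosome 17 it steps down after about the first 200 genes.

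The treated libraries gave a second look at the same 2 lines, at doses that differed between them. Of the 1142 genes higher in untreated T24, 893 (78.2%) were at 2-fold or more in the same direction in the treated pair, and of the 1464 higher in untreated 5637, 1223 (83.5%). The 8-fold genes kept the 2-fold rule in 78 of 79 cases for T24 and 192 of 192 for 5637. The sign was opposite for 13 genes of the T24 set and 12 of the 5637 set. Median differences were close between the pairs, 1.40 untreated and 1.36 treated for the T24 set, and -1.55 and -1.5 for the 5637 set. Treated cells are not replicates of untreated ones, and each pair again holds 1 library per line.

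**Figure D5:**
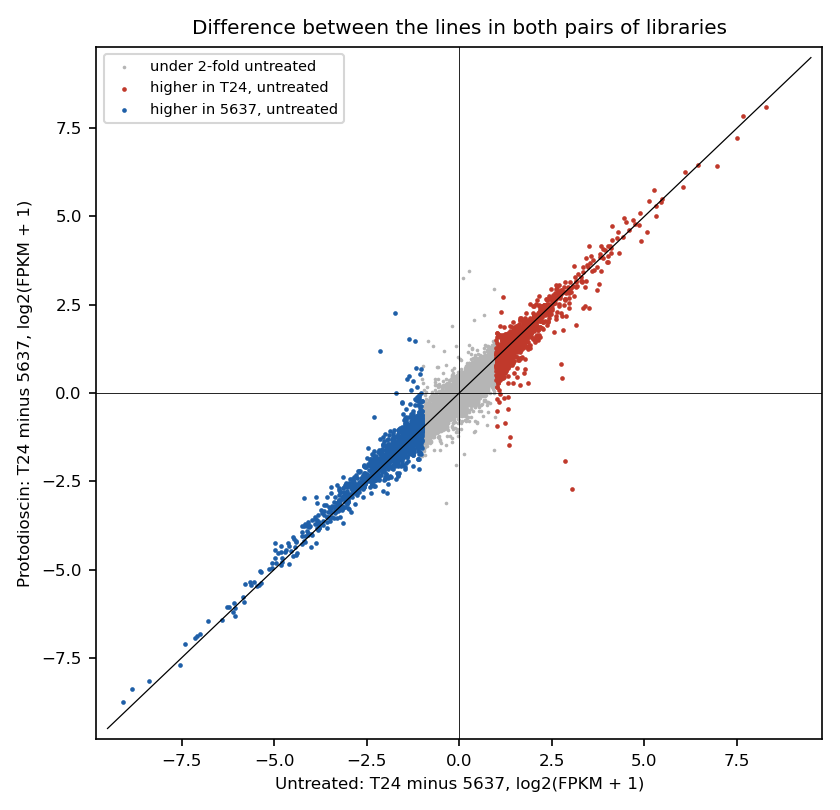
Difference between the lines (T24 minus 5637, log2(FPKM + 1)) in untreated libraries (x axis) and protodioscin libraries (y axis), 1 point per compared gene, red for genes at 2-fold or more higher in untreated T24 and blue for those higher in untreated 5637; the diagonal marks equal differences. Most coloured points lie near the diagonal, and 13 red and 12 blue points have the opposite sign in the treated pair.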

How the data were processed

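RNA was measured in 4 libraries, and the untreated T24 and 5637 libraries, 1 each, were compared. Per the labels' protocols, libraries were made with a TruSeq RNA v2 kit, which does not mark strand, so a gene and its antisense partner cannot be told apart, and paired 150-base reads were sequenced. The authors deposited FPKM per gene. The submitters' processing notes list Trimmomatic, HISAT2, StringTie and GRCh38, and the annotation release is not given in the sources used here. StringTie divides reads between overlapping transcripts by estimate, and 18.1% of compared genes share exons on the same strand with another gene. Read totals are not part of the table, so no counting interval was given.

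All steps used pandas 2.3.3 in Python 3.11.15 on the log2(FPKM + 1) scale, with coordinates and gene types from GENCODE 29 and exon sharing from bedtools 2.31.1. Genes at 1 FPKM or more in either library were compared, and differences of 1 and 3 were the size rules. The rule of 1 was run on values with known changes and no noise. That run checks the arithmetic only, and the rule of 3 was not part of it. No test was possible with 1 library per group. The dose unit follows the sample titles, since the treatment text gives the same numbers in millimolar. The 30 gene lists and the members were chosen with earlier results of these data known.

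Named were the 12 widest differences in each direction among genes that share no exons on their own strand. Of each list, up to 6 members in each direction and up to 6 abundant members under 2-fold were named. Textbook identity genes, genes at the thresholds and up to 6 genes per chromosome run were added. Y-linked genes and XIST were not named, and some genes that the rule selects are not reported here. Neighbours of named genes, stretch edges and KLF5, AREG, TGFA, TGFB1, ISG15, OAS2, OASL, CASC15, C3, CCNE1, LAMB3, PSAT1 and VHL were chosen after values were seen. Alternatives were other pseudocounts, filters, scalings and windows.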

Additional observations from a re-analysis of the deposited data

How the results depend on the processing

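With a pseudocount of 5, 466 genes were higher in T24 and 590 in 5637 at 2-fold or more, and with a filter at 5 FPKM 915 genes were higher in 5637. At 8-fold, the counts for T24 and 5637 were 284 and 643 with a pseudocount of 0.1, 26 and 40 with a pseudocount of 5, and 171 and 363 on the TPM scale. Listed members higher in 5637 numbered 158 with a pseudocount of 5. Genes at a level in 1 line numbered 54 in T24 and 218 in 5637 on the TPM scale, 99 and 245 with under 1 FPKM allowed in the other line, and 12 and 60 at 10 FPKM or more. The highest running median was 0.8486 over 51 genes and lay on chromosome 17. The median difference over all genes, near 0, was below 0 at -0.0229 with median-ratio scaling, at -0.00882 with no filter and at -0.00995 in the treated libraries. Of 478 named genes a pseudocount of 5 moved 91 under the 2-fold rule. Scalings moved the median of all genes by at most 0.0562. No paired analysis was possible because each group held 1 library.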
